A study of Mus musculus with 28 samples.

Results

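Dietary abscisic acid (ABA) was compared with a control diet in the spleens of wild-type mice from the experiment that held both genotypes. All arrays titled as wild-type in that experiment were taken, which gave 8 of the 28 arrays of the series: 4 from ABA-fed and 4 from control-fed mice, with 2 of each diet after lipopolysaccharide (LPS) and 2 without it. Every wild-type mouse carried the strain label PPAR g flfl; MMTV-Cre-, that is, a floxed Pparg gene without the Cre recombinase that the null mice express from the MMTV promoter, so the floxed allele was common to both diets. The labels describe splenocytes as well as homogenised tissue, and ABA dose, feeding time, LPS dose and route, interval after LPS, age and sex were not given in the sources used here. Nothing in them ties each replicate to an animal of its own, and a p-value here therefore reflects the spread among arrays, which may be partly technical. The question was whether the ABA diet altered splenic transcript levels in mice whose floxed Pparg gene had not been recombined.

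ABA is a plant hormone that mammals also make, and the membrane-associated protein LANCL2 is known to bind it and to raise cyclic AMP through adenylyl cyclase. ABA has also been studied as an activator of PPARg, a nuclear receptor that pairs with retinoid X receptors, turns on genes of lipid handling and restrains inflammatory transcription. LPS, from the outer membrane of Gram-negative bacteria, is sensed by TLR4 and drives NF-kB and interferon programmes in splenic macrophages, dendritic cells and B cells.

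The values are deposited log2 expression values, in which 1 unit is a 2-fold difference. Of 18194 genes with a probe set naming that gene alone, 10495 lay over 0.5 above the lowest value of the experiment on at least 4 of the 8 arrays and were tested. Over all probe sets the 8 arrays correlated at 0.942 to 0.995 with each other. The ABA replicates without LPS differed most from each other: they correlated at 0.931 over the tested genes, and 2645 genes differed by over 1 between them, against 296 to 1277 in the other 3 groups. The erythroid list mean was 12.26 on replicate 1 and 9.40 on replicate 2, and the cell cycle list mean 10.80 and 8.40. The control arrays without LPS lay between these, at 11.38 and 11.44 for erythroid genes and 9.03 and 9.97 for the cell cycle, so these means do not settle which of the pair deviates. The median of a list described below is also given without replicate 1 and without replicate 2 of this pair where leaving it out turns the sign or moves the median by over 1.5 times.

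Sex-linked transcripts also differed between arrays. Xist, the RNA of the inactive X chromosome, read 13.05 on the ABA array without LPS replicate 1, 13.07 and 12.61 on both control arrays with LPS, and 2.24 on the other 5 arrays. The Y-linked Eif2s3y, a translation factor subunit, read 2.24 on the first of these, 2.49 and 2.25 on both control arrays with LPS, and 8.41 to 9.17 on the other 5. The diets with LPS were therefore fully split by these transcripts, and their part in the diet differences with LPS cannot be told apart from diet. Adipose transcripts also moved array by array: Adipoq, the fat-cell hormone adiponectin, read 6.64 on the ABA array without LPS replicate 1, 7.61 on the ABA array with LPS replicate 1 and 5.98 on the control array with LPS replicate 2, and 2.36 to 2.59 elsewhere. Of 12 adipose markers 3 could be tested: Car3, Fabp4 and Lipe. Their mean ranged from 5.59 to 9.52 on ABA and from 5.14 to 8.16 on control arrays. These markers did not move together: the diet difference was 3.61 for Car3 and 1.59 for Fabp4, but -0.59 for Lipe. The highest Lipe value, 5.73, fell on a control array with Adipoq at 2.36. Among untested markers Lep, Ucp1 and Cidea stayed at 2.24 throughout, and Cidec did not exceed 2.52. Retn and Pck1 peaked at 3.23 and 3.83, each on an array with high Adipoq. Defining markers of the spleen were present, with B cell list means of 8.81 to 10.38 and T cell list means of 6.93 to 8.10.

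**Figure D1:**
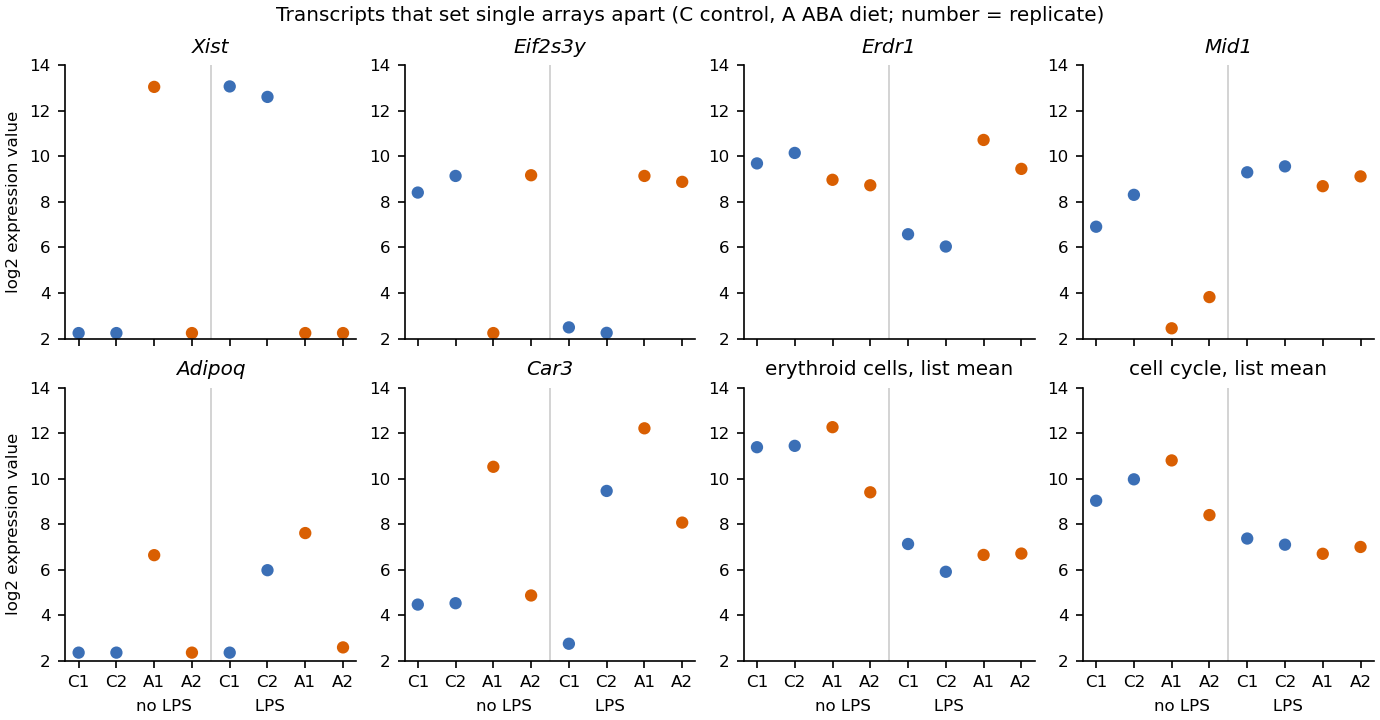
Log2 expression values of 6 transcripts and 2 list means on the 8 wild-type arrays, without LPS to the left and with LPS to the right of the line in each panel (blue, control diet; orange, ABA diet). Xist and Eif2s3y split the arrays in opposite ways, Adipoq is high on 3 arrays, and the erythroid and cell cycle means differ most between the ABA arrays without LPS.

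No gene passed the test for diet. With LPS as a term, 0 of 10495 genes (0%) had an adjusted p under 0.05 (limma, Benjamini-Hochberg), and the smallest adjusted p was 0.161, for Cped1. The unadjusted p was under 0.05 for 693 genes (6.6%), where 525 would be 5% of those tested, with 292 higher (2.78%) and 401 lower (3.82%) in ABA-fed mice. That split turned to 434 higher and 307 lower after quantile normalisation and to 551 and 243 with each array centred on its median. In the same fit 1506 genes (14.3%) passed for LPS, 849 that rose and 657 that fell, so large changes could be called on these 8 arrays.

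The sizes of the diet differences were small for most genes. The median difference over all tested genes was -0.02 and the median size regardless of sign 0.20. The median 95% interval reached 0.60 to either side of the estimate, and for 6809 genes (64.9%) it lay wholly within 1 log2 unit of 0. For those genes a 2-fold diet difference lies outside the interval. Only 187 genes differed by more than 1 log2 unit, 44 higher and 143 lower.

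**Figure D2:**
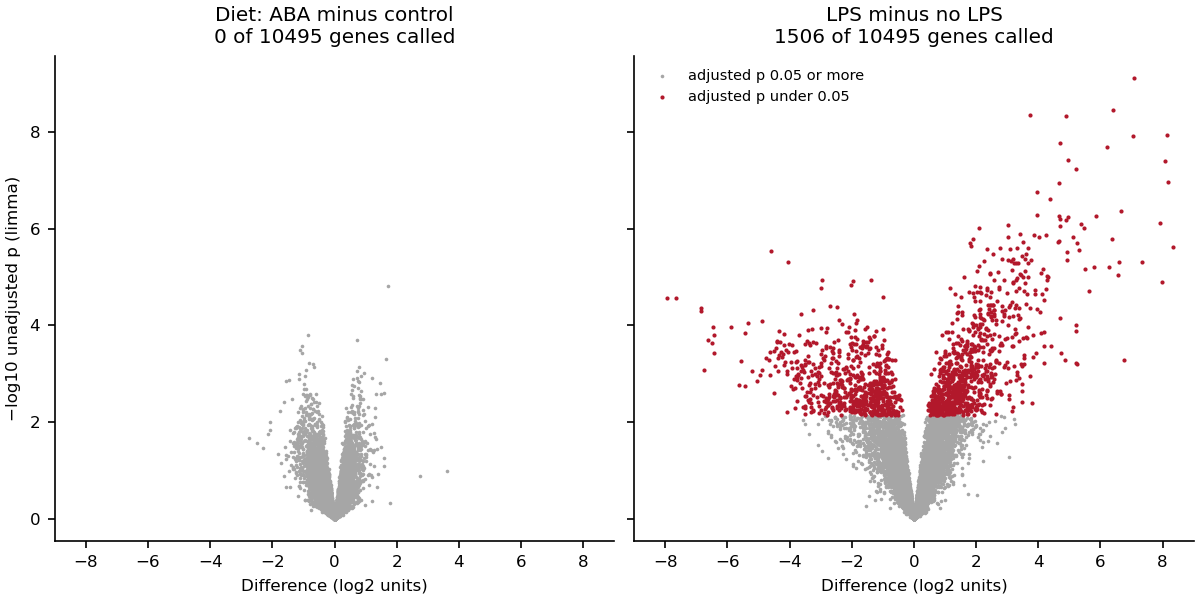
Difference in log2 units (horizontal) against the negative log10 of the unadjusted p from limma (vertical) for 10495 genes, for diet on the left and for LPS on the right, both from a single fit of the 8 arrays. Diet called 0 genes, while LPS called 1506 (red).

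Among genes whose diets did not overlap in either LPS condition and had the same direction in both, 294 read higher (2.8% of the tested genes) and 364 lower (3.47%) with ABA, and a further 475 (4.53%) did not overlap but went opposite ways with and without LPS. With 2 arrays per group such separation also arises by chance, and the share that chance would give was not computed. Lack of overlap is therefore a description here and not a test. The genes described next are those with the smallest p among the 294 and 364, and none passed.

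Where 4 values are given for a diet, the arrays without LPS come first. Cped1, named for its cadherin-like and PC-esterase domains, had the smallest p. It read 5.48 and 5.37 on the ABA arrays without LPS and 4.96 and 4.92 on those with LPS, against 3.31 and 3.87 without and 3.31 and 3.40 with LPS on the control diet. All 4 ABA arrays lay above all 4 control arrays. The difference was 1.71 ± 0.15 (SE; 95% interval 1.35 to 2.07), 1.84 without and 1.59 with LPS, and its adjusted p of 0.161 (limma) was 0.0496 with median-centred arrays and 0.016 when the spread was estimated from all 16 arrays of the experiment. Leaving out each array in turn gave 1.57 to 1.80, with no gene passing in any of those 8 fits.

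Speg, a kinase of striated muscle and vascular smooth muscle, read 6.83 and 6.47 on the ABA arrays without LPS and 5.57 and 5.57 on those with it, against 5.57 and 5.21 without and 3.97 and 3.14 with LPS on the control diet. The diets separated within each LPS condition. The 5.57 on both ABA arrays with LPS and on 1 control array without LPS was the same value to 4 decimals. Its difference was 1.64 ± 0.26 (SE; adjusted p = 0.606, limma), and a second probe set gave 1.17. Rbm12b1, an RNA-binding protein, read 6.51, 6.30, 6.07 and 5.90 on the ABA arrays and 4.55, 5.38, 4.83 and 5.18 on the control arrays, a difference of 1.21 ± 0.22 with no overlap over all 8. Acsl3, which activates long-chain fatty acids for lipid synthesis, was at 4.68 and 4.37 (no LPS) and 4.00 and 3.92 (LPS) on ABA, against 3.83 and 3.92, and 3.48 and 3.37, on the control diet. Its difference was 0.59 ± 0.11, and a second probe set gave 0.36 in the same direction.

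The other genes that read higher were Fam170b by 0.94 ± 0.16, Bhmt2, a methyltransferase of homocysteine metabolism, by 0.86 ± 0.16, Scrn2 by 0.80 ± 0.13, Ccdc69 by 0.73 ± 0.13, the testis-type linker histone H1f7 by 0.71 ± 0.09 and the myosin chaperone Unc45a by 0.71 ± 0.13. All had an adjusted p of 0.606 (limma). Most of these 10 genes sat low on the scale, with a median level of 4.18 against 7.40 for all tested genes. Exceptions were Unc45a, with a mean of 8.33, and Ccdc69, with a mean of 6.98. Of the 10, 7 repeated exactly the same value (to 4 decimals) on 2 or more arrays, against 26.2% of all tested genes. Fam170b, for instance, read 3.78 on both ABA arrays with LPS and on 1 control array without LPS. A second probe set of Ccdc69 went the other way, at -0.53.

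Of the genes that read lower with ABA, Zfp414, a zinc-finger protein, had the smallest p. It read 5.27, 5.09, 4.97 and 5.09 on the ABA arrays and 6.23, 5.98, 5.77 and 5.93 on the control arrays, with no overlap, and its difference was -0.87 ± 0.11 (SE; adjusted p = 0.606, limma). Zdhhc4, of the palmitoyltransferase family, measured 6.63 and 7.02 in the absence of LPS and 7.37 and 7.35 in its presence on ABA, against 7.74 and 7.94, and 8.25 and 8.68, on the control diet, a difference of -1.06 ± 0.15. Aspscr1, which tethers the glucose transporter GLUT4 inside cells, read 4.08, 4.08, 4.34 and 4.74 on ABA and 5.31, 5.12, 5.38 and 5.93 on the control diet, a difference of -1.12 ± 0.16.

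Spr, the sepiapterin reductase that completes tetrahydrobiopterin synthesis, read 4.74, 4.81, 4.81 and 4.83 on the ABA arrays and 5.79, 5.52, 5.79 and 6.29 on the control arrays, a difference of -1.05 ± 0.15. For Zfp414, Zdhhc4, Aspscr1 and Spr every ABA array lay below every control array. The other 6 were Eri3, of an exoribonuclease family, at -1.14 ± 0.20, Fbxo6, a ubiquitin ligase subunit that binds glycoproteins, at -0.96 ± 0.17, the selenoprotein Selenoo at -0.93 ± 0.16, the transcription factor Thap11 at -0.83 ± 0.13, Ttc7 at -0.69 ± 0.11 and the SUMO ligase Pias4 at -0.67 ± 0.11. Second probe sets of Ttc7 and Pias4 went the other way, at 0.74 and 0.29.

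**Figure D3:**
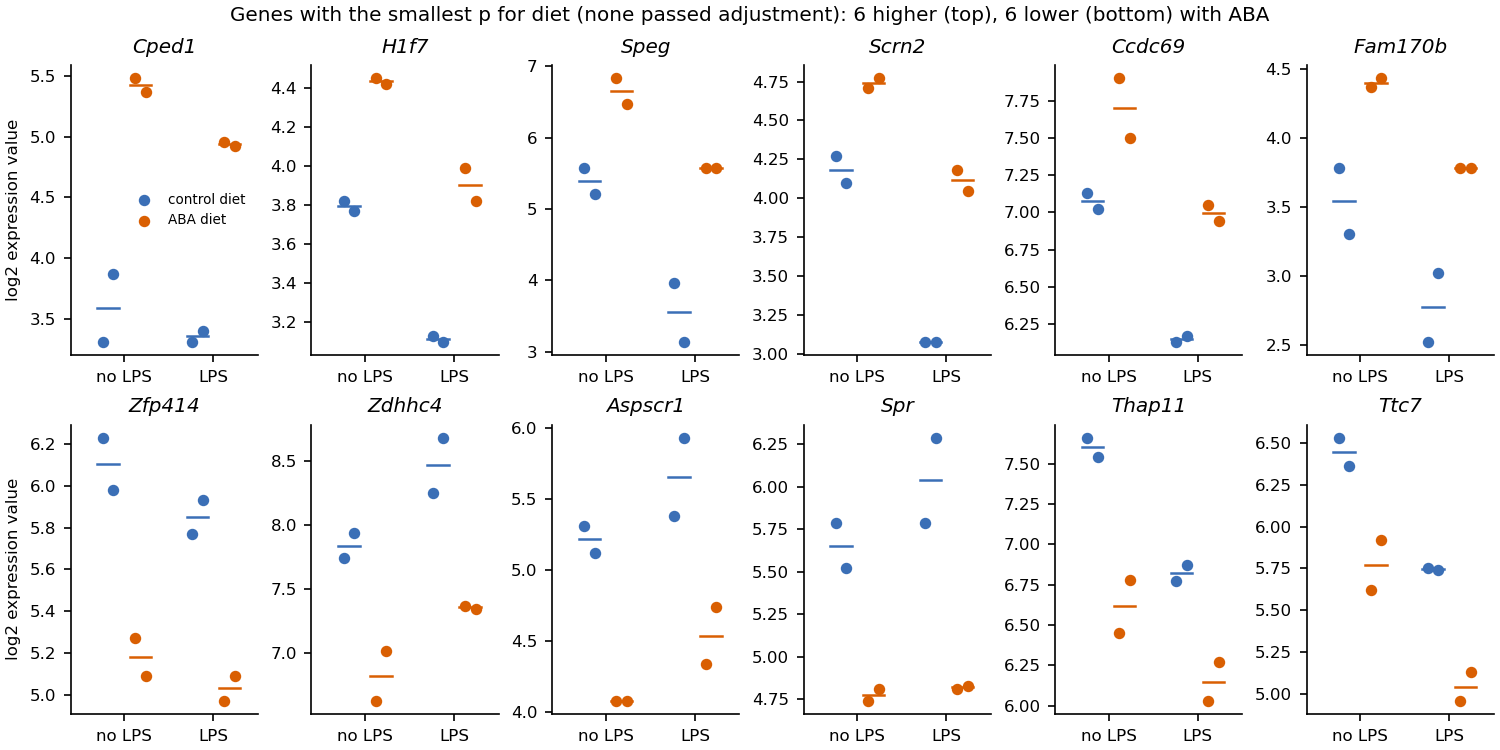
Log2 expression values of the 6 genes with the smallest p that read higher (top row) and the 6 that read lower (bottom row) with ABA, each point 1 array and each line the mean of 2 arrays, with a separate vertical range per panel. All 12 were chosen among genes whose diets did not overlap within either LPS condition, so that separation is not a result. None passed adjustment.

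The largest differences were those of genes whose replicates disagreed. Car3, the carbonic anhydrase abundant in fat and muscle, gave 10.52 and 4.87 unchallenged and 12.21 and 8.07 after LPS on ABA, against 4.47 and 4.53, and 2.75 and 9.46, on the control diet. It was high on the 3 arrays with high Adipoq and on 1 more ABA array with LPS, and its difference of 3.61 ± 1.91 had an adjusted p of 0.753 (limma). Cyp2e1, a cytochrome P450 of liver and fat, read 7.25, 2.25, 9.61 and 3.92 on ABA and 2.26, 2.25, 2.27 and 5.21 on control arrays, a difference of 2.76 ± 1.60. Both were highest on the ABA array with LPS replicate 1, and the part of adipose tissue in the diet difference was not tested. With the adipose list mean of each array as a further term 0 genes were called and 372 had an unadjusted p under 0.05.

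Cd79a, a signalling subunit of the B cell receptor, was at 7.31 and 9.11 (no LPS) and 7.53 and 5.17 (LPS) on ABA, against 12.25 and 8.83, and 9.32 and 9.77, on the control diet. One control array without LPS stood well above the rest, and the diets overlapped without LPS. The difference was -2.76 ± 0.91 (SE; adjusted p = 0.735, limma). Its partner chain in the receptor, Cd79b, differed by only -0.69 ± 0.46. Mid1, an X-linked ubiquitin ligase of microtubules, read 2.45 and 3.82 on the ABA arrays without LPS against 6.91 and 8.31 on the control diet, but 8.69 and 9.12 against 9.30 and 9.56 with LPS. It separated the diets in both conditions, with a difference of -4.47 without LPS and -0.53 with it.

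Among genes of the ABA receptor and cyclic AMP pathway, 0 of 25 tested passed, 16 lay above 0, and the median difference was 0.10 against -0.02 for all tested genes. It was 0.18 without replicate 1 of the ABA pair without LPS. Beside this and the later list counts, 4837 of all 10495 tested genes lay above 0. That number was 5506 after quantile normalisation and 6451 with median-centred arrays. Lancl2 measured 9.35 and 7.27 in the absence of LPS and 7.01 and 5.43 in its presence on ABA, against 7.21 and 7.92, and 7.14 and 7.10, on the control diet. The ABA arrays lay below the control arrays with LPS and overlapped them without, and the ABA replicates of each condition lay further apart than the control replicates. Its difference was -0.07 ± 0.63 (SE; 95% interval -1.58 to 1.44), so a 2-fold difference either way lies inside the interval, and 2 further probe sets gave 0.18 and 0.39. Its relative Lancl1 differed by -0.22 ± 0.20.

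The adenylyl cyclase Adcy9 gave 6.43 and 6.17 unchallenged and 6.00 and 5.71 after LPS on ABA, against 6.35 and 5.40, and 4.21 and 4.87, on the control diet. The diets separated with LPS only, and the difference was 0.87 ± 0.31 (SE; unadjusted p = 0.0276, adjusted p = 0.735, limma), while 3 other probe sets lay between -0.03 and -0.01. Gnas, the stimulatory G protein subunit that activates adenylyl cyclase, read 11.66, 12.17, 11.75 and 11.43 on ABA and 12.51, 12.29, 11.92 and 12.45 on control arrays, a difference of -0.54 ± 0.18 with no overlap within either condition. Crem, a cyclic AMP responsive transcription factor, read 5.17 and 5.96 on ABA with LPS against 7.60 and 8.06 on the control diet, and 4.42 and 4.87 against 4.46 and 4.46 without LPS. Its difference was -2.26 with LPS (adjusted p = 0.313, limma) and 0.18 without.

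Pparg itself was too low to test, and where its probe set lies relative to the floxed part was not given in the sources used here. Its probe set was at 2.45 and 3.56 (no LPS) and 2.45 and 2.31 (LPS) on ABA, and 2.51 and 2.69, and 2.32 and 2.45, on the control diet. Only 1 array exceeded the lowest value by more than 0.5. Of 23 tested partners and lipid targets 0 passed and 13 lay above 0, with a median of 0.07 that was 0.23 without ABA replicate 1 without LPS and -0.06 without replicate 2. Cd36, a fatty acid transporter and known PPARg target, differed by -0.10 ± 0.24 (95% interval -0.66 to 0.47), which leaves a 2-fold diet difference outside the interval.

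Lpl, the lipase that releases fatty acids from lipoproteins, measured 9.32 and 9.37 in the absence of LPS and 10.57 and 8.83 in its presence on ABA, against 9.07 and 8.57, and 7.90 and 7.92, on the control diet. The diets did not overlap in either condition. The difference was 1.16 ± 0.44 (SE; adjusted p = 0.735, limma), and the highest value stood on the array with the highest Adipoq. Fabp4, the fatty acid binding protein of fat cells and macrophages, differed by 1.59 ± 0.77 and was likewise highest, at 11.11, on that array. Rxrb, a retinoid X receptor, differed by -0.43 ± 0.16.

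Genes of TLR4 and NF-kB signalling numbered 30, with 0 called, 13 above 0 and a median of -0.03 that was 0.00 and 0.08 under quantile normalisation and median centring. It was 0.12, with 20 of 30 above 0, without ABA replicate 1 without LPS, and -0.26, with 11 of 30, without replicate 2. The receptor Tlr4 differed by 0.62 ± 0.36. Tlr2, the receptor for bacterial lipoproteins, gave 6.77 and 7.15 unchallenged and 8.79 and 8.33 after LPS on ABA, against 6.57 and 6.44, and 7.14 and 7.14, on the control diet. The ABA arrays were higher in both conditions, by 1.42 with LPS and 0.46 without, and over both by 0.94 ± 0.24 (SE; unadjusted p = 0.00673, adjusted p = 0.673, limma). The TLR adaptor Ticam1 differed by -0.51 ± 0.17 and the NF-kB subunit Rela by -0.59 ± 0.21, and neither passed.

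Inflammatory cytokines and chemokines showed 0 of 26 tested genes called, 9 above 0 and a median of -0.13, which was -0.21 without ABA replicate 2 without LPS. A further 8 members were too low on most arrays to test. Among them Ifng, the cytokine interferon-gamma of T and natural killer cells, read 2.29 and 4.50 on ABA with LPS against 7.03 and 8.97 on the control diet, and 2.29 on all 4 arrays without LPS. The diets did not overlap with LPS, on the same arrays that Xist and Eif2s3y split, and the difference has no test here. Tnf read 4.00 and 5.10 with LPS on ABA against 4.06 and 5.89 on the control diet, and 2.24 to 2.74 on all arrays without LPS. Its difference was -0.33 ± 0.44 (SE; 95% interval -1.39 to 0.72), and the replicates with LPS differed by more than the diets did. Il6 read 3.65 and 6.87 on ABA with LPS, 4.05 and 7.36 on the control diet with LPS and 2.24 on all 4 arrays without, a difference of -0.22 ± 0.92 (95% interval -2.43 to 1.98).

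Il1b, an inflammatory cytokine of myeloid cells, was at 5.44 and 9.50 (no LPS) and 11.24 and 10.52 (LPS) on ABA, against 6.47 and 7.65, and 9.68 and 10.45, on the control diet. Its difference was 0.61 ± 0.86, and it turned to -0.16 without the ABA array without LPS replicate 2. The anti-inflammatory cytokine Il10 differed by -0.36 ± 0.46 (95% interval -1.46 to 0.75). Il12a, a subunit of interleukin-12, read 3.31, 3.51, 3.44 and 3.06 on ABA and 3.88, 3.47, 4.17 and 4.20 on control arrays, a difference of -0.60 ± 0.19 with overlap without LPS only. For Tnf, Il6, Il1b and Il10 the interval holds a 2-fold difference in at least 1 direction.

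Interferon-gamma-induced genes lay below 0 for 16 of 18 tested members (Ido1 and Socs1 were too low to test), with a median of -0.30 that was -0.25 after quantile normalisation and -0.19 with centred arrays, and 0 passed. Wars, a tryptophanyl-tRNA synthetase induced by interferon, measured 6.56 and 6.68 in the absence of LPS and 9.48 and 10.17 in its presence on ABA, against 7.56 and 7.10, and 10.98 and 11.50, on the control diet. The diets did not overlap in either condition, and the difference was -1.07 ± 0.25 (SE; unadjusted p = 0.00465, adjusted p = 0.673, limma). Tap1, the peptide transporter of antigen presentation, differed by -0.90 ± 0.35 and Irf8, a transcription factor of myeloid and B cells, by -0.86 ± 0.37. Without ABA replicate 1 without LPS the list median was -0.10, with 5 of 18 above 0, and without replicate 2 it was -0.53, with 2 of 18. Type I interferon-stimulated genes had 6 of 23 above 0 and a median of -0.15, with Ifit3, an antiviral RNA-binding protein, at -0.80 ± 0.30.

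Acute phase and antimicrobial genes had 10 of 14 tested members above 0 and a median of 0.38, with 0 called. The median was 0.71 without ABA replicate 1 without LPS. Chil3, a chitinase-like protein of macrophages and neutrophils, gave 8.10 and 10.03 unchallenged and 11.41 and 11.07 after LPS on ABA, against 8.23 and 7.24, and 9.82 and 10.06, on the control diet. The diets separated with LPS and overlapped without, and the difference was 1.32 ± 0.44. Saa3, an acute phase apolipoprotein, read 14.42 and 13.10 on ABA with LPS against 11.60 and 12.55 on the control diet, and differed by 1.13 ± 0.43. Serpina3n, a protease inhibitor, went the other way at -0.83 ± 0.31. None of the 3 passed (adjusted p = 0.735, limma).

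The remaining pathway lists held no called gene, and their medians ran from -0.33 for antigen presentation and -0.29 for immediate-early genes up to the heat shock chaperones. Without ABA replicate 1 without LPS the first 2 were -0.10 and -0.02, and without replicate 2 -0.58 and -0.51. Heat shock chaperones had a median of 0.13 with 10 of 13 above 0, among them Hspa1b at 0.97 ± 0.39, Dnaja1 at 0.42 ± 0.16 and Chordc1 at 0.40 ± 0.16. Of glycolysis genes, with a median of -0.18 that was -0.01 without ABA replicate 1 without LPS, Pdk1, the kinase that restrains pyruvate dehydrogenase, differed by 1.10 ± 0.31 and Gapdh by -0.43 ± 0.13. Of cholesterol synthesis genes, with a median of -0.06 that turned to 0.03 and 0.05 under the other scalings and to 0.03 without the same array and was -0.03 without replicate 2, Cyp51 differed by 0.52 ± 0.18 and Nsdhl by -0.40 ± 0.14. The clock genes Per3 and Cry2 differed by 0.77 ± 0.29 and -0.49 ± 0.17, the thioredoxin reductase Txnrd1 by 0.46 ± 0.15 and the ribosomal protein Rplp0 by -0.34 ± 0.13.

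Markers of neutrophils, with 0 of 12 passing, had the most members at an unadjusted p under 0.05, 4 of 12 against 2.78% of all tested genes in that direction. Of the 12 markers 11 lay above 0, with a median of 0.57 (0.62 and 0.68 under the other scalings). The median was 0.86 without ABA replicate 1 without LPS and 0.38 without replicate 2. The list mean was 9.80 and 9.58 on ABA with LPS against 8.58 and 8.80 on the control diet, and 6.87 and 8.0 against 7.53 and 7.20 without LPS. It separated the diets with LPS and overlapped without. Camp, the antimicrobial peptide cathelicidin, differed by 1.14 ± 0.36, Prtn3, a granule protease, by 0.74 ± 0.18, the peroxidase Mpo by 0.69 ± 0.22 and the chemokine receptor Cxcr2 by 0.60 ± 0.25 (adjusted p = 0.673 for Prtn3 and 0.735 for the other 3, limma). Prtn3 sat low on the scale and read 4.15 on both ABA arrays with LPS and both control arrays without LPS. Megakaryocyte and platelet markers had a median of 0.65 with 6 of 7 above 0, and macrophage and monocyte markers 0.33 with 11 of 16, also with 0 called. Without ABA replicate 1 without LPS these were 0.96 with 6 of 7 and 0.62 with 16 of 16, and without replicate 2 they were 0.34 with 6 of 7 and 0.16 with 10 of 16. In bulk spleen, fewer cells of a type and less RNA per cell cannot be told apart.

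Lymphocyte markers lay mostly below 0. For B cells 10 of 12 did, with a median of -0.47 (-0.48 and -0.37 under the other scalings), and for T cells 11 of 14, with a median of -0.33 (-0.27 and -0.22). Cd3e, a chain of the T cell receptor complex, differed by -0.66 ± 0.27 and Cd8b1, a co-receptor chain of cytotoxic T cells, by -0.66 ± 0.22, and neither passed (adjusted p = 0.735, limma). Without ABA replicate 1 without LPS the medians were -0.17 for B cells and -0.16 for T cells, and without replicate 2 they were -0.74 and -0.37. Dendritic cell markers had a median of -0.19 with 2 of 9 above 0, which was 0.05 with 7 of 9 without replicate 1 and -0.45 with 2 of 9 without replicate 2. Of these, the transcription factor Zbtb46 differed by 0.52 ± 0.13 and the homing receptor Ccr7 by -1.04 ± 0.38. Erythroid and cell cycle lists had medians of -0.28 and -0.22, which became -0.72 and -0.68 without ABA replicate 1 without LPS and 0.46 and 0.20 without replicate 2, so their sign depends on these arrays.

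**Figure D4:**
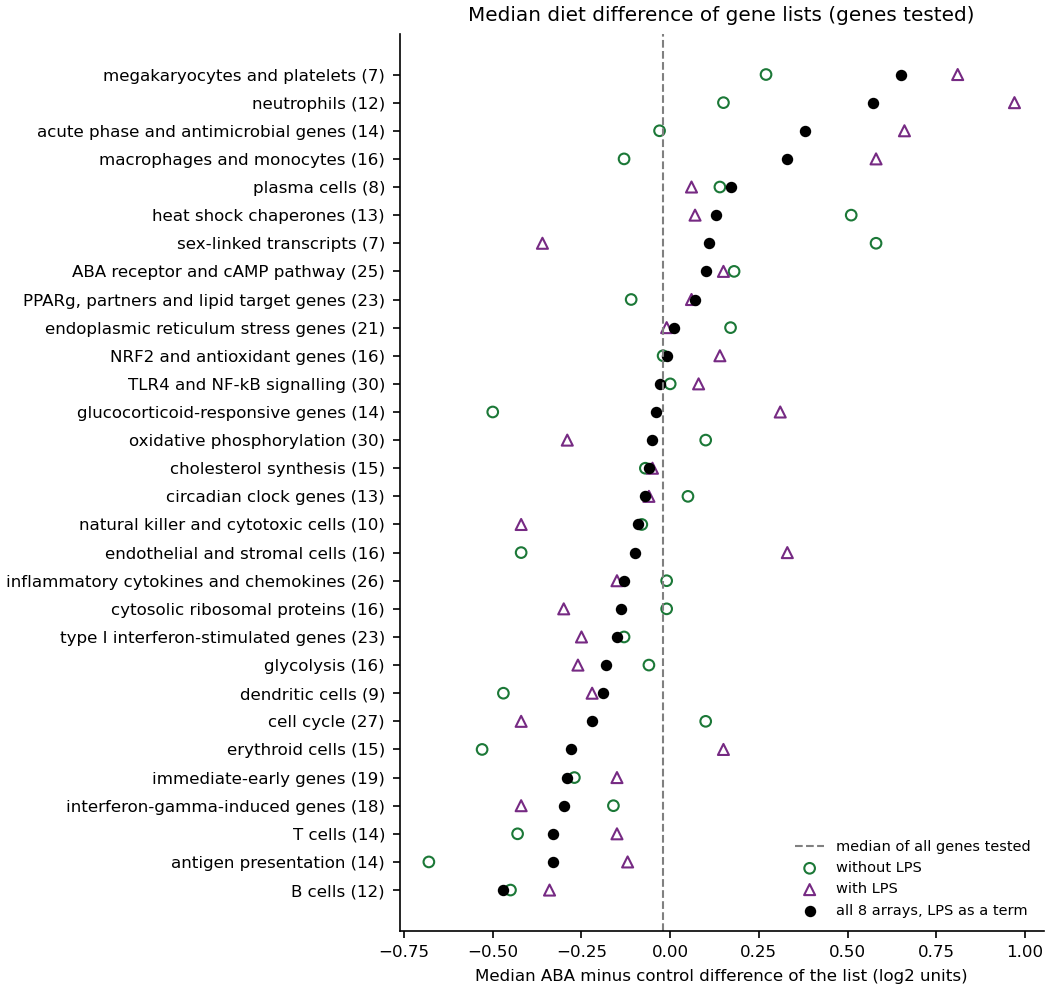
Median ABA minus control difference in log2 units (horizontal) of each gene list with 5 or more tested members (vertical, number tested in brackets), over all 8 arrays (filled) and in the arrays without (circles) and with LPS (triangles). Most medians lie within 0.5 of the dashed line at -0.02 for all tested genes, and the neutrophil list is at 0.97 with LPS and 0.15 without.

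Diet was also compared within each LPS condition, 2 against 2 arrays, and 0 genes passed in either. With LPS, 0% were called and 712 (6.78%) had an unadjusted p under 0.05 (limma), and without LPS 0% and 682 (6.5%). Across the 10495 genes the diet differences with and without LPS, which share no array, correlated at 0.08 as a description, and 51.7% had the same direction. The test of whether the diet difference itself depended on LPS called 0 genes (0%), with 634 (6.04%) at an unadjusted p under 0.05 and a smallest adjusted p of 0.627 (limma).

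Nrm, the nuclear envelope protein nurim, was among the 5 genes with the smallest interaction p. It also had the smallest adjusted p for diet without LPS. It read 6.12 and 6.09 on ABA without LPS against 8.47 and 8.33 on the control diet, and 5.12 and 5.12 against 5.95 and 6.00 with LPS. The ABA arrays were lower in both conditions, by -2.29 without LPS (adjusted p = 0.0584, limma) and by -0.86 with it. B3gat3, a glycosyltransferase of proteoglycan synthesis, read 7.24 and 7.30 against 8.16 and 8.31 without LPS and 7.57 and 7.83 against 6.56 and 6.83 with LPS, so the ABA arrays were lower in one condition and higher in the other. Zc3h15 and Pias2 ran opposite to it, at -0.88 and -1.46 with LPS and 1.09 and 0.37 without.

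Erdr1 read 10.72 and 9.45 on ABA against 6.58 and 6.04 on control arrays with LPS, and 8.97 and 8.73 against 9.69 and 10.15 without, an interaction of 4.84 ± 0.65. Its low values fell on both control arrays with LPS. On the ABA array without LPS replicate 1, which was also high in Xist, Erdr1 read 8.97. The part of the Xist split in the Erdr1 interaction was not tested. All 7 tested sex-linked transcripts had an unadjusted p under 0.05 for this interaction, against 6.04% of all tested genes, and none passed. Kdm5d, on the Y chromosome, differed by 4.24 with LPS and -1.81 without, and the X-linked Kdm6a by -1.16 and 1.21. With a term for high Xist in the diet fit, 0 genes were called and 994 had an unadjusted p under 0.05. Of the glucocorticoid-responsive genes 5 of 14 had an unadjusted p under 0.05 for the interaction, against the same 6.04%, with list medians of 0.31 with LPS and -0.50 without.

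The null arrays of the same experiment (strain label PPAR g flfl; MMTV-Cre+) offer the same comparison in other arrays. There 0 genes (0%) were called for diet, with 283 (2.7%) at an unadjusted p under 0.05, and the test of the difference between genotypes called 0 (0%), with 398 (3.79%) unadjusted (limma). Across 10495 genes the diet differences of the genotypes correlated at 0.095 as a description, with 54.7% in the same direction. Null replicates also disagreed. Without LPS the pancreas marker Cela1 read 9.11 and 14.80 on ABA and 8.46 and 12.00 on control arrays. The erythroid marker Epb42 read 8.18 and 9.75 against 3.62 and 9.44. Eif2s3y read 2.24 on replicate 2 of both null ABA pairs, 2.31 on the null control array with LPS replicate 2 and 8.56 to 9.75 on the others. Their part in the null diet differences was not tested. The 10 genes with the smallest p that read higher in wild-type mice were compared in null mice within each LPS condition: 9 read higher with ABA without LPS, but only 2 did with LPS. Of the 10 that read lower, all 10 read lower in null mice without LPS and 2 with LPS, Zfp414 and Zdhhc4, both by -0.01. Only Rbm12b1, Zfp414 and Zdhhc4 kept the wild-type direction in both conditions. Without LPS, Cped1 read 4.42 and 4.66 on the null ABA arrays against 3.14 and 2.89 on the null control arrays. With LPS it read 4.02 and 4.42 against 4.97 and 4.51. It was higher with ABA without LPS and lower with LPS. Over both conditions it differed by 0.51 ± 0.17 in null mice, and the genotypes' differences were not called as unequal (limma adjusted p = 1, unadjusted p = 0.000544). Of the 294 genes without overlap that read higher, 75.5% had the same direction in null mice without LPS and 44.9% with LPS, and of the 364 that read lower, 91.5% and 20.9%. Over all tested genes these shares were 62.6% and 41.2%. Regardless of the wild-type direction, 3503 of the 10495 genes read higher with ABA in null mice without LPS and 6545 with LPS.

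The wild-type-only experiment tested the same diets in 12 further arrays of the same strain label, and levels were not set against it because it was normalised separately. Most of its arrays were from mice given LPS, while the 8 arrays described here are split evenly. Its diet difference over both conditions therefore weighs LPS more. That experiment called 20 of 8007 genes (0.25%), 2 that rose and 18 that fell with ABA, with 1106 (13.8%) at an unadjusted p under 0.05 (limma). Of these 20, 7 had the same direction in the 8 arrays described here, where 46.1% of all 8007 genes did. In these 8 arrays 0 of the 20 had that direction with an unadjusted p under 0.05. The count of 20 was 0 after quantile normalisation and 0 to 6 when any 1 of its 12 arrays was left out, with 0 without control replicate 1, 2 or 3 with LPS or control replicate 1 without LPS. Across 8007 genes the differences of the experiments correlated at -0.131 as a description, with 46.1% in the same direction.

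Hip1r, an actin and clathrin-coat adaptor, was the only gene whose diet difference was called as unequal between the experiments (1 of 8007, 0.0125%, with 1066 or 13.3% unadjusted). It differed by 0.67 ± 0.10 in the wild-type-only experiment and by -0.93 ± 0.24 here (adjusted p = 0.0259 for the difference, limma), and the call was lost without any 1 of 8 arrays of the wild-type-only experiment. Ms4a4d, a membrane protein of the MS4A family, fell by 0.80 there and read 0.58 ± 0.28 higher here. The gap-junction protein Gja1 and the apoptosis regulator Pawr likewise fell by 0.72 and 0.81 there and read 0.68 ± 0.24 and 0.84 ± 0.34 higher here. Mmp3, a matrix protease, was one of the few in the same direction, at 0.72 ± 0.11 there and 0.60 ± 0.38 here.

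Some lists lay on the same side in all 3 sets of arrays and others did not. Of all tested genes, 4837 of 10495 were above 0 here, 5299 of 10495 in null mice and 3311 of 8007 in the wild-type-only experiment. Neutrophil markers were above 0 for 11 of 12 here, 11 of 12 in null mice and 7 of 8 in the wild-type-only experiment, with medians of 0.57, 0.73 and 0.61. Interferon-gamma-induced genes were above 0 for 2 of 18, 2 of 18 and 3 of 18, with medians of -0.30, -0.27 and -0.21. In null mice that list was above 0 for 0 of 18 without LPS and 13 of 18 with LPS, while the neutrophil list was above 0 for 12 and 10 of 12. All 10495 tested genes together moved the same way in null mice, with 3503 above 0 without LPS and 6545 with LPS. Their medians were -0.15 and 0.11. Heat shock chaperones were above 0 for 10 of 13 here and 13 of 13 in null mice but for 0 of 11 in the wild-type-only experiment, with medians of 0.13, 0.25 and -0.45. B cell markers had medians of -0.47, 0.01 and 0.24 (in null mice -0.44 without and 0.46 with LPS), and T cell markers of -0.33, 0.02 and 0.06.

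**Figure D5:**
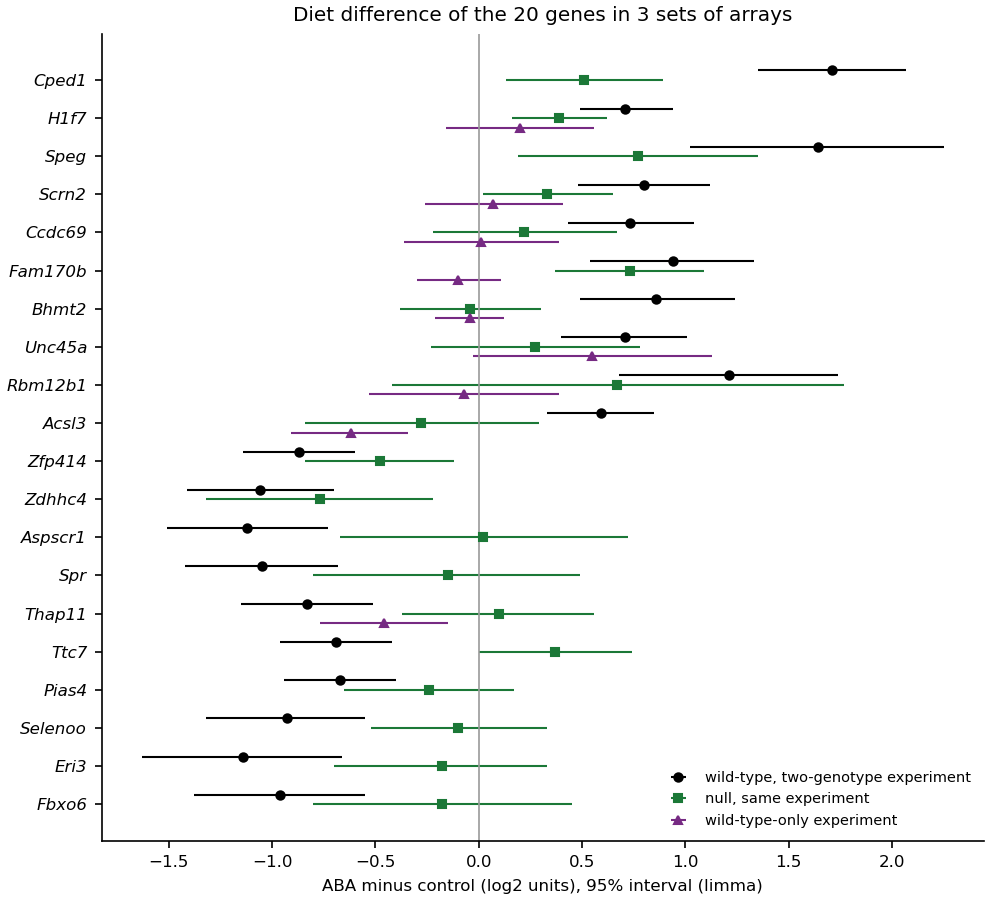
ABA minus control difference in log2 units with its 95% interval from limma (horizontal) for the 20 genes with the smallest p (vertical), in the 8 wild-type arrays (black), the 8 null arrays (green) and the 12 arrays of the wild-type-only experiment (purple, for the 9 genes tested there). The wild-type values chose the genes and are not evidence for them; the null values are means over both LPS conditions, whose directions are opposite for 17 of the 20 genes.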

How the data were processed

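Spleen RNA was hybridised to a 1-colour mouse array. The authors deposited log2 values for 45101 probe sets; GCRMA and limma appear, without versions or roles, in the submitters' processing notes, and the log2 scale was read from the range and from a lowest value shared within each experiment (2.243 with both genotypes, 2.292 wild-type only). The array build was not given in the sources used here. GEO's annotation named 1 gene for 34958 probe sets, several for 932 and none for 9211, and 34754 matched the RefSeq GRCm38.p6 gene table by Entrez identifier. Only single-gene probe sets were used, the one with the highest mean per gene. No 2 arrays held identical values (0 pairs).

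Genes over 0.5 above the lowest value on at least 4 of 8 arrays (6 of 12 in the other experiment) entered linear models (limma 3.58.1, R 4.3.3, lmFit and eBayes; diet and LPS as terms, 4 group means for LPS conditions, 8 for the 16 arrays with null mice, diet within experiment for the 20 wild-type arrays), with Benjamini-Hochberg adjustment and a threshold of 0.05. The ± is limma's standard error. Precision is limited by the number of arrays. The fit was tested on simulated data with known changes in genes with a mean over 5. Over 5 draws it recovered 23.6% of diet differences of 1 log2 unit and 65.4% of those of 2. The mean number of false calls was 4.4. A count of 0 called genes therefore does not show that no gene differed 2-fold.

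Genes are named by a rule: those called, or else up to 10 per direction with the smallest p and no overlap of diets in either LPS condition, up to 2 per direction of each of 34 gene lists (673 entries, 508 tested), a few set genes, the sex-linked list and the 5 smallest interaction p-values. Adipoq, Ifng, Ido1, Socs1, Mid1, Cd79b, Lancl1, Irf8, Chordc1, Mpo, Cxcr2 and the genes called in the wild-type-only experiment were chosen after their values were seen. The members and lists were chosen with earlier results of these data known. Alternatives are given in the closing section. Plots were made in Python 3.11.15 using matplotlib 3.10.9.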

Additional observations from a re-analysis of the deposited data

Results flagged for a closer look

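The diet difference of Hip1r differed between experiments by a test of the difference itself: the value with both genotypes minus that of the wild-type-only experiment was -1.59 (adjusted p = 0.0259, limma; 1 of 8007 genes). It was -0.93 ± 0.24 (SE) in the 8 wild-type arrays and 0.67 ± 0.10 in the 12 arrays of the other experiment. The groups held too few arrays for a search for single outlying arrays.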

How the results depend on the processing

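The count of genes called for diet stayed at 0 under 15 of 17 alternatives and in all 8 fits that left out 1 array, with 372 to 1290 and 373 to 998 genes at an unadjusted p under 0.05. It was 1, Cped1, with median-centred arrays (1.82) and with all 16 arrays (1.71), and centring moved the median of all genes to 0.08. The interaction of diet and LPS called 25 genes without a filter, 12 of them higher, and 0 to 1 without single arrays (1 without the ABA array without LPS replicate 2). The wild-type-only experiment called 0 after quantile normalisation and 0 to 6 without single arrays. Leaving out arrays one at a time gave 0 to 11 calls in null mice, 0 to 1 for diet by genotype and 0 to 77 for diet by experiment, the highest being 77 and 72 without the ABA arrays without LPS replicate 1 and with LPS replicate 2, and 11 in null mice without the null control array without LPS replicate 2. The count of 1 for diet by experiment became 0 without any 1 of 8 arrays of the wild-type-only experiment. Lancl2 turned from -0.07 to 0.03 with centring, 0.16 with the mean of probe sets, 0.28 when high Xist was a term and 0.02 when the erythroid mean was, and ranged from -0.66 to 0.41 without single arrays. Cd36 turned from -0.10 to 0.01 with centring and with the mean of probe sets, and ranged from -0.26 to 0.08. Without single arrays Tnf ranged from -0.68 to 0.06, Il6 from -0.84 to 0.48, Il10 from -0.65 to 0.13 and Il1b from -0.16 to 1.46. The causes were not tested. The adipose and erythroid terms, and single arrays left out for all but the diet and interaction fits, were chosen after seeing the data. Where a group keeps 1 array, it is assumed to vary like the others.

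Replicate numbers share only a number: deviations of same-numbered arrays correlated at -0.222 to 0.297 between groups. With the replicate number as a block 0 genes were called for diet, with 714 at an unadjusted p under 0.05. Values near the lowest cannot show a decrease.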
